A study of Sus scrofa with 80 samples.

Results

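The genes described here encode nuclear subunits of the oxidative phosphorylation complexes. They were chosen by symbol in the annotation of the array: NDUF genes of complex I, SDHA to SDHD of complex II, UQCR genes of complex III, COX4 to COX8 genes of complex IV and ATP5 genes of complex V. Of the 6765 genes with 1 symbol on the array, 64 were members, measured by 82 probesets. Complex I had 33 members, complex II 4, complex III 2, complex IV 7 and complex V 13. The symbol rule also took in 4 assembly factors (NDUFAF1, NDUFAF2, NDUFAF3 and SDHAF2) and ATP5S, a factor associated with the ATP synthase. For the 15 genes with several probesets, the probeset of highest mean stood for the gene. Of their 18 other probesets, 12 had a mean of at least log2 4 in some group. Over the 80 arrays 5 of these 12 correlated with the probeset used at r over 0.5, and r was -0.08 to 0.90. Differences given for these genes come from the probeset used unless stated.

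Complexes I to IV of the inner mitochondrial membrane pass electrons from NADH and succinate to oxygen. Complexes I, III and IV pump protons as they do so, and complex V, the ATP synthase, uses the gradient to make ATP. Most subunits are encoded in the nucleus, some as isoforms that differ between tissues such as heart, skeletal muscle and liver. Neurons depend on this pathway for most of their ATP, and steroid-producing cells also use mitochondria for the first step of steroid synthesis.

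The study hybridised 80 Affymetrix porcine arrays, 1 for each of 5 tissues of 16 pigs: hypothalamus, adenohypophysis, thyroid gland, gonad and backfat. The breeds were Large White, Duroc, Youli and Iberian, with 4 pigs each, and arrays are named by tissue, breed, sex and animal. Large White, Duroc and Iberian comprised 2 males and 2 females each and Youli 3 males and 1 female, which gave 9 testes and 7 ovaries. Pigs of all breeds were housed over the same period and on the same diets from about 1 month of age. They were fattened for 2 months and fasted before slaughter. Youli is a synthetic line of Landrace, Chinese and European origin. The animals came from 3 breeding companies, and which company supplied which breed was not stated in the sources used here, so breed and origin cannot be told apart. Mean age and live weight at slaughter also differed between the breeds in the study's methods, so that breed, age and weight cannot be told apart either. The arrays are of whole tissue, in which fewer cells of a type and less RNA per cell cannot be told apart.

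Values are deposited log2 intensities. The median over probesets was between 4.67 and 5.04 on every array, with a group mean of 4.73 in backfat, 4.98 in ovary and 4.86 to 4.88 in the other groups. Defining markers fitted the tissue labels between groups: 10 of 10 measured pituitary hormone cell genes were higher in the adenohypophysis, 12 of 12 neuronal genes in the hypothalamus, 6 of 7 thyroid genes in the thyroid gland, 13 of 15 adipocyte genes in backfat, 10 of 11 Leydig cell genes in testis and 9 of 10 granulosa, theca and oocyte genes in ovary. One backfat array, FATBYLM19 from a Youli male, stood apart. Of 27 striated muscle genes 25 were higher there than on every other backfat array, with a median difference of 9.43 log2, and 10 of 15 adipocyte genes were lower than on every other. Of 10 spermatogenic genes 9 were also higher there than on the other 15. Of all 6765 genes, 1284 were higher and 1612 lower there than on every other backfat array. FATBDUM12 and FATBDUF14 also had a striated muscle mean of 7.45 and 7.69 log2, against a median of 3.74 over the 16 arrays. The muscle gene MYL1 was at 8.38 on FATBLWF06 and 6.71 on FATBIBF22, against a median of 2.22 over the 16. Another muscle gene, MYH7, had 2.58 and 3.09 on these 2 arrays, against a median of 2.62.

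Arrays of other tissues stood apart too. The ovary GONAIBF25 had a mean of 3.03 log2 over the 10 granulosa, theca and oocyte genes, where the other 6 ovaries had 7.85 to 9.30. Follistatin, FST, had 2.22 there and 9.60 to 11.50 in the other ovaries, and HSD17B1, an estradiol-forming enzyme, had 2.88 against 10.40 to 11.78. The mean of the Leydig cell and steroidogenesis genes was 3.86 there against 5.20 to 9.36, and that of the Sertoli cell genes 4.49 against 6.63 to 6.96. This ovary thus lacked the genes by which its label was checked. THYGYLM20 had growth hormone, GH1, at 14.70 and prolactin, PRL, at 13.74, and THYGYLM19 had them at 11.04 and 11.28, where the median over the 16 thyroid arrays was 3.93 and 1.95. HYPTYLM19 had 10.93 and 11.34, above the 7.10 and 7.74 of the next hypothalamus arrays. The 3 testes GONAYLM19, GONAYLM20 and GONALWM02 had a spermatogenic mean of 9.51, 8.69 and 7.80, against a median of 3.27 over the 9 testes. On the arrays named for ovary, thyroid gland and hypothalamus the mean over members lay within the range of their group. The counts of members were taken again without each of these sets of arrays, an alternative chosen after seeing the data.

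The probesets of the members had a mean intensity of 9.76 log2, against 6.57 over all 6765 genes. Levels of different probesets cannot be compared as amounts of RNA. The mean of the 64 members was 9.99 ± 0.12 (SD, n = 16) in hypothalamus, 9.84 ± 0.07 (n = 9) in testis, 9.73 ± 0.28 (n = 16) in backfat, 9.70 ± 0.09 (n = 16) in adenohypophysis, 9.69 ± 0.15 (n = 16) in thyroid gland and 9.44 ± 0.11 (n = 7) in ovary. Without FATBYLM19, backfat had 9.68 ± 0.19 (n = 15). The lowest, median and highest array were 9.82, 9.98 and 10.17 in hypothalamus, 9.73, 9.85 and 9.96 in testis and 9.32, 9.42 and 9.64 in ovary. Every testis was thus above every ovary, while hypothalamus and testis overlapped. FATBYLM19 had 10.53, above all other arrays of any tissue, and the other backfat arrays had 9.38 to 9.94.

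**Figure D1:**
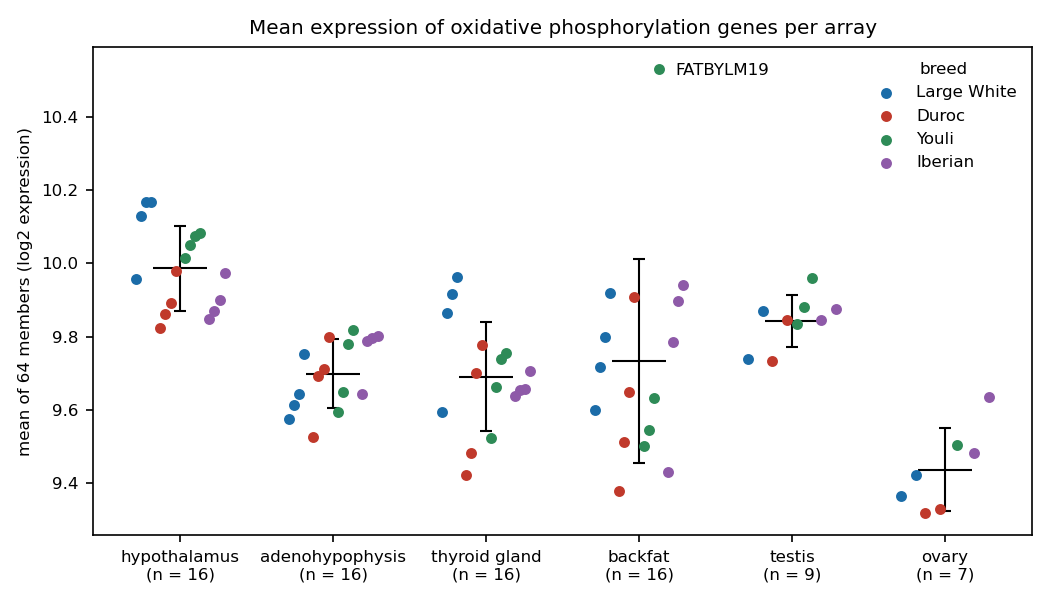
Mean expression of the 64 members (log2) on each array, by group on the x axis and coloured by breed; black lines give the group mean and SD. Hypothalamus was highest at 9.99 and ovary lowest at 9.44, and FATBYLM19 at 10.53 stood above all other arrays.

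The hypothalamus held the highest group mean for 21 members, testis for 16, thyroid gland for 10, backfat for 9, adenohypophysis for 8 and ovary for 0. The ovary held the lowest for 18, adenohypophysis for 14, thyroid gland and backfat for 12 each, testis for 6 and hypothalamus for 2. The shares of all genes with their highest or lowest mean in each group were not counted. The range over the 6 group means had a median of 1.04 log2 over members, with 36 of 64 above 1. Over all genes the median was 1.47 log2, with 68.6% above 1. In limma, 63 of 64 members differed among the 6 groups at an adjusted p under 0.05, a background of 96.7% of genes and 94.2% of probesets. The exception was COX8H, the heart and skeletal muscle form of cytochrome c oxidase subunit 8 (adjusted p = 0.0695), and 64 passed without FATBYLM19. The largest ranges were those of NDUFA4 (2.92), NDUFA5 (1.96), ATP5S (1.66), ATP5G2 (1.58) and ATP5G1 (1.51). The smallest were those of NDUFS5 (0.34), ATP5F1 (0.34), COX6C (0.36), ATP5L (0.39) and ATP5O (0.45).

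**Figure D2:**
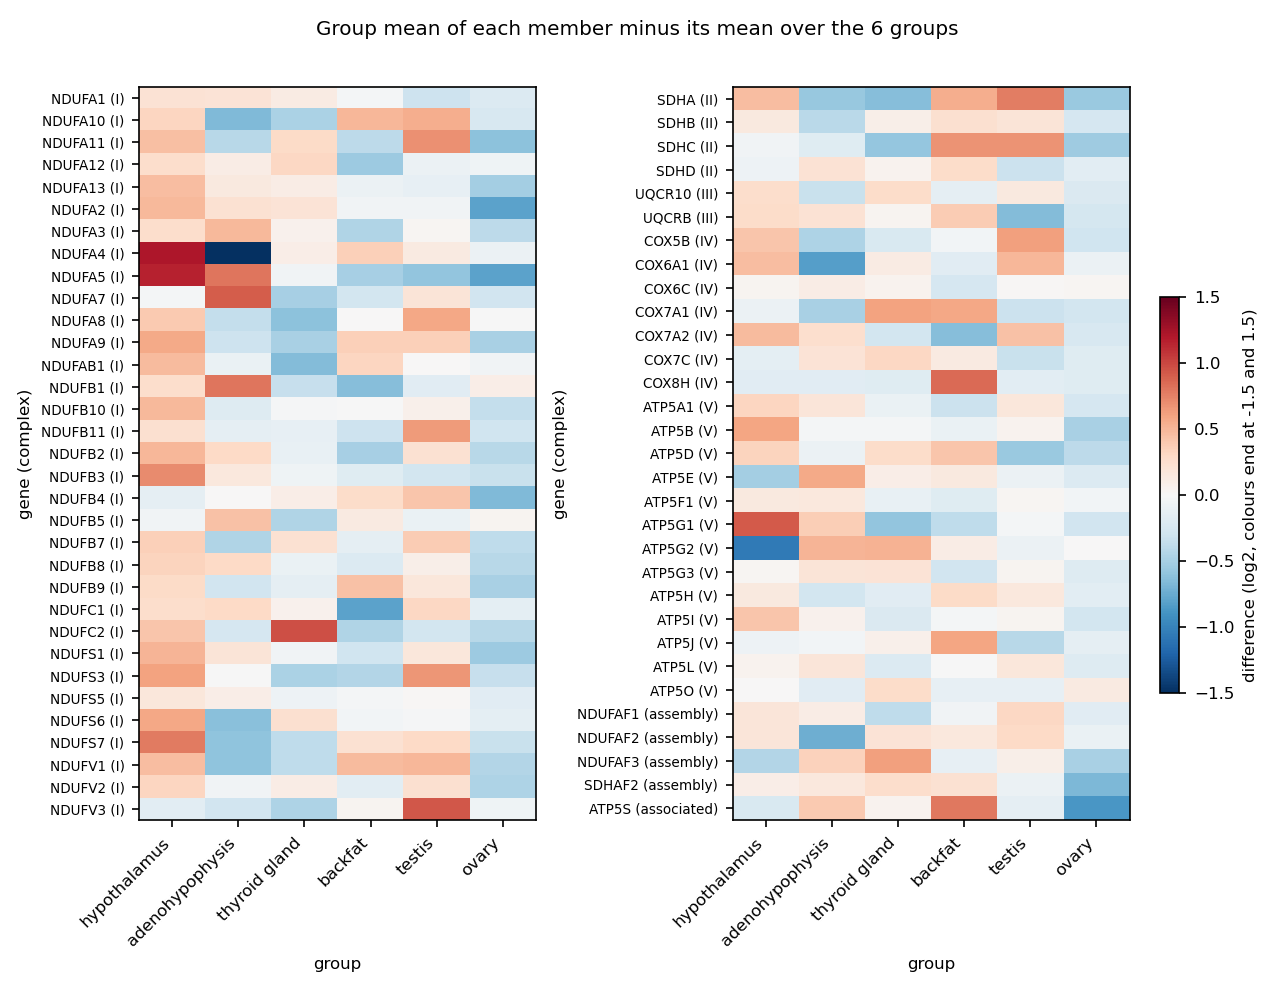
Group mean of each member minus its own mean over the 6 groups (log2, red higher, blue lower), with genes as rows marked by complex and groups as columns. The hypothalamus column is mostly red and the ovary column mostly blue; NDUFA4 goes from 12.11 in hypothalamus to 9.19 in adenohypophysis, beyond the blue end of the scale.

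Against the mean of the other 5 groups, 43 members were higher in hypothalamus (28.5% of all genes) and 7 were lower (46.3% of all genes). The median difference was 0.32 log2 over members and -0.14 log2 over all genes. Complex I carried most of the calls, with 29 of its 33 members higher and 2 lower. Complex V had 7 of 13 higher, complex IV 3 of 7, and both complex III members were higher. Of complex II, the succinate dehydrogenase that is also an enzyme of the citric acid cycle, 2 of 4 were higher. Without HYPTYLM19, 44 members were higher and 7 lower.

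NDUFA4, once counted to complex I and now assigned to complex IV, varied more than any other member. By its symbol it stays with complex I in all counts given here. It had 11.76, 12.11 and 12.78 (lowest, median and highest of 16) in hypothalamus and 8.87, 9.20 and 9.45 in adenohypophysis. Backfat, testis, thyroid gland and ovary lay between these with group means of 10.80 to 11.26, and no neighbours among them passed the test in limma on all 80 arrays. The hypothalamus was 0.85 log2 above backfat (SE 0.09, adjusted p = 6.1e-14) and 0.92 log2 (SE 0.08) without FATBYLM19, and the adenohypophysis was 1.57 log2 below ovary (SE 0.12, adjusted p = 1.8e-19). No hypothalamus array overlapped an adenohypophysis array.

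NDUFA5, an accessory subunit of complex I, had 9.37, 9.99 and 10.44 in hypothalamus, 9.19, 9.56 and 9.88 in adenohypophysis and 7.51, 7.97 and 8.32 in ovary. It was 1.39 log2 above the other groups in hypothalamus (SE 0.09, adjusted p = 1.7e-22) and 0.95 log2 above them in adenohypophysis (SE 0.09, adjusted p = 1.2e-14). Among the core subunits of complex I, NDUFS7, which lies next to the quinone site, had 8.77, 9.29 and 9.83 in hypothalamus and 7.61, 8.02 and 8.15 in adenohypophysis, with no overlap. Its difference from the other groups was 0.94 log2 in hypothalamus and -0.72 log2 in adenohypophysis. NDUFS3, NDUFS1, NDUFV1 and NDUFV2 were also higher in hypothalamus, by 0.72, 0.62, 0.55 and 0.38 log2. So were the catalytic subunits of the ATP synthase, ATP5B by 0.72 log2 and ATP5A1 by 0.39 log2. Over the 6 group means, another NDUFS3 probeset ran with the one used (r = 0.96) and a further one did not (r = -0.34). For NDUFV2 the other probesets, of lower intensity, had r = 0.36 and 0.29.

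Not all members followed that direction in the hypothalamus. ATP5G1, ATP5G2 and ATP5G3 encode the same mature protein, subunit c of the rotor ring of the ATP synthase, with different targeting sequences. ATP5G1 had 10.09, 10.42 and 10.80 in hypothalamus and group means of 8.94 to 9.90 in the other groups, a difference of 1.10 log2 (SE 0.09, adjusted p = 8.3e-18). ATP5G2 had 9.24, 9.72 and 9.93 in hypothalamus and group means of 10.65 to 11.27 in the other groups, a difference of -1.27 log2 (SE 0.06, adjusted p = 4.9e-33). ATP5G3 did not pass the test there, with a difference of 0.04 log2. ATP5G1 minus ATP5G2, taken within each array, was 0.40 to 1.54 log2 in the 16 hypothalamus arrays and between -2.80 and -0.34 in all other arrays, so the groups did not overlap. The other members lower in hypothalamus by the largest differences were ATP5E, the epsilon subunit, at -0.62 log2, the assembly factor NDUFAF3 at -0.52 log2 and ATP5S at -0.27 log2.

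In adenohypophysis 29 members were higher (29.4% of all genes) and 23 were lower (38.6% of all genes), and their median difference was 0.04 log2. After NDUFA4, the members lowest there were COX6A1, the form of cytochrome c oxidase subunit 6A found in most tissues (-0.99 log2, SE 0.07, adjusted p = 1.7e-21), NDUFAF2 (-0.88 log2) and NDUFA10 (-0.79 log2). Those highest were accessory subunits of complex I, NDUFA7 (1.09 log2, SE 0.07, adjusted p = 6.6e-23) and NDUFB1 (0.96 log2), with NDUFA5, and the epsilon subunit ATP5E (0.68 log2). The level of ATP5E was 12.66, 12.89 and 13.05 in adenohypophysis against 11.68, 11.80 and 11.96 in hypothalamus. These arrays did not overlap.

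In thyroid gland 18 members were higher (32.0% of all genes) and 23 were lower (33.3% of all genes), with a median of -0.03 log2. Without THYGYLM19 and THYGYLM20 these counts were 17 and 22. NDUFC2, an accessory subunit of complex I, had 11.42, 11.78 and 12.04 there, against group means of 10.39 to 11.26 elsewhere. Its difference was 1.17 log2 (SE 0.05, adjusted p = 1.1e-35). The others highest in the thyroid gland were NDUFAF3 (0.74 log2), COX7A1 (0.73 log2) and ATP5G2 (0.63 log2). The lowest were NDUFAB1, the mitochondrial acyl carrier protein (-0.78 log2), SDHA (-0.77 log2), NDUFA8 (-0.74 log2) and ATP5G1 (-0.71 log2).

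In backfat 24 members were higher (39.6% of all genes) and 25 were lower (37.9% of all genes). Without FATBYLM19 these counts were 22 and 25, and 21 and 27 without FATBDUM12 and FATBDUF14 as well. With each array centred on its median they were 29 and 16, so the balance between higher and lower members depended on the scale. The median was lowest in backfat (4.73), so centring raises all genes there, and the shares of all genes with centring were not counted. All 4 members of complex II were higher. SDHC, a membrane anchor, was higher by 0.80 log2 (SE 0.08, adjusted p = 4.4e-15), SDHA, the flavoprotein, by 0.66 log2, SDHD by 0.33 log2 and SDHB, the iron-sulfur subunit, by 0.29 log2. Over the 6 group means, the other probeset of SDHB ran with the one used at r = 0.19, and that of SDHA at r = 0.97. ATP5S was higher by 0.95 log2 and ATP5J, coupling factor 6, by 0.71 log2. Of complex I, 15 members were lower and 9 higher. The members lowest in backfat were NDUFC1 (-0.96 log2), NDUFB1 and COX7A2 (-0.77 log2 each) and NDUFA12 (-0.65 log2). The direction and the call of each held without FATBYLM19.

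Isoforms of cytochrome c oxidase differed between the groups. COX7A1 is the form of heart and skeletal muscle, and COX7A2 the form of most other tissues. COX7A1 had 8.91, 9.60 and 10.06 in thyroid gland and 8.45, 9.48 and 10.07 in the 15 backfat arrays without FATBYLM19, against group means of 8.46 to 8.86 elsewhere. The difference between thyroid gland and backfat in COX7A1 did not pass the test (0.03 log2, SE 0.11, adjusted p = 0.84, and 0.12 log2, SE 0.10, adjusted p = 0.28, without FATBYLM19). Backfat exceeded the next group, hypothalamus, by 0.67 log2 (SE 0.11, adjusted p = 2.9e-07), and by 0.57 log2 (SE 0.10, adjusted p = 4.1e-07) without FATBYLM19. Adipocyte genes were measured in the thyroid glands as well, ADIPOQ, adiponectin, at 1.93, 6.63 and 10.89 and FABP4, a fatty acid binding protein, at 9.75, 10.92 and 13.08 (lowest, median and highest of 16). The mean of the 15 adipocyte genes was 3.93 to 6.78 in thyroid gland and 9.22 to 10.45 in backfat without FATBYLM19, and their part in the level of COX7A1 was not tested. COX7A2 ran the other way, with a mean of 10.90 in thyroid gland, of 10.54 in backfat with or without FATBYLM19 and of 10.94 to 11.65 elsewhere. Within each array, COX7A1 minus COX7A2 averaged -1.35 ± 0.25 log2 (SD, n = 16) in thyroid gland and -1.11 ± 0.36 log2 (n = 15, without FATBYLM19) in backfat, against -2.80 ± 0.16 log2 (n = 16) in hypothalamus and -2.98 ± 0.32 log2 (n = 16) in adenohypophysis. It was -2.27 ± 0.29 log2 (n = 7) in ovary and -3.0 ± 1.05 log2 (n = 9) in testis, with highest values of -1.86 and -1.71, and these overlapped backfat, whose lowest value was -2.07.

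COX8H was near the lowest values of the table, at 1.8 to 2.0, on all arrays of the other 5 groups. In backfat it had 11.65 on FATBYLM19, 4.75 on FATBDUM12, 4.24 on FATBDUF14 and 1.86 to 2.21 on the other 13 arrays. Muscle creatine kinase, CKM, was also highest on these 3 arrays, at 14.57, 11.04 and 10.92, and at 2.24 to 7.92 on the others. COX8H exceeded 2.21 on these 3 arrays only, among all 80. Of the 27 striated muscle genes 19 were higher in backfat, where 39.6% of all genes were. The count was 17 without FATBYLM19, with a backfat mean under log2 4 in 18 of the 27, and 13 without all 3 arrays. The part of muscle in the values of COX8H and COX7A1 was not tested.

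In testis 28 members were higher (33.3% of all genes) and 10 were lower (26.6% of all genes), with a median of 0.10 log2. Without GONAYLM19, GONAYLM20 and GONALWM02 these counts were 19 (29% of all genes) and 11 (23.7% of all genes). The members highest there were NDUFV3, an accessory subunit of complex I (1.17 log2, SE 0.10, adjusted p = 1.4e-16), SDHA (0.93 log2), NDUFA11 (0.84 log2) and SDHC (0.82 log2). The lowest were NDUFA5 (-0.76 log2), UQCRB of complex III (-0.71 log2), ATP5D, the delta subunit of the ATP synthase (-0.64 log2), and ATP5J (-0.43 log2). COX5B, a subunit of cytochrome c oxidase, was higher in testis (0.78 log2) and hypothalamus (0.51 log2) and lower in adenohypophysis (-0.55 log2). In ovary 0 were higher (27.1% of all genes) and 44 were lower (26.3% of all genes), with a median of -0.35 log2 against -0.03 log2 over all genes. At an unadjusted p under 0.05 no member was higher in ovary in limma. With arrays centred on their medians 55 were lower in ovary. The median over probesets was highest in ovary (4.98), so centring lowers all genes there against the other groups. The share of all genes with centring was not counted. Without GONAIBF25 the counts were 0 higher and 42 lower (27.3% of all genes). The part of the cell types that GONAIBF25 lacks was not tested. The members furthest below the other groups in ovary were ATP5S (-1.17 log2, SE 0.12, adjusted p = 2.5e-13), NDUFA2 (-0.99 log2), NDUFA5 (-0.91 log2) and SDHAF2, which is needed to attach the flavin to SDHA (-0.82 log2). Lower members made up 23 of 33 in complex I, all 4 in complex II, 2 of 2 in complex III, 4 of 7 in complex IV and 8 of 13 in complex V.

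Testis and ovary were then compared within the 16 gonad arrays, with breed as covariate. In limma 39 of 64 members were higher in testis, where 19.6% of all genes were, and 2 were lower, where 16.6% of all genes were. The median difference was 0.41 log2 over members and 0.02 log2 over all genes. For 16 members every testis was above every ovary, a background of 7.17% of genes, and for 1 member, ATP5O, every testis was below, a background of 5.45%. Of complex I 24 of 33 members were higher in testis and 0 lower, and of complex II 3 of 4. Complex V had 6 of 13 higher and 1 lower, and complex IV 2 of 7 higher. Without GONAIBF25, the ovary that lacks granulosa genes, 41 members were higher in testis (21% of all genes) and 3 lower (18.5%), and every testis was above every ovary in 20 members (8.81% of all genes). Without the 3 testes with spermatogenic genes 38 were higher (17.9% of all genes) and 3 lower (14.7%).

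SDHA had 10.55, 10.73 and 11.19 in the testes (lowest, median and highest of 9) and 9.04, 9.50 and 10.08 in the 7 ovaries. It was 1.32 log2 higher in testis (SE 0.13, adjusted p = 1.9e-05 by limma), and 1.20 log2 without GONAIBF25. SDHC was 1.24 log2 higher (SE 0.15) and SDHB 0.43 log2 (SE 0.08). SDHD, the other anchor of complex II, had a difference of -0.08 log2 and did not pass the test. Of complex I, NDUFA11 was 1.24 log2 higher in testis (SE 0.16), NDUFB4 1.06 log2 (SE 0.13), NDUFV3 1.05 log2 (SE 0.21) and NDUFB11 1.00 log2 (SE 0.22). The catalytic subunits ATP5A1 and ATP5B were higher by 0.43 and 0.52 log2. Lower in testis were UQCRB of complex III (-0.39 log2, SE 0.13, adjusted p = 0.042) and ATP5O, the stalk subunit that confers oligomycin sensitivity (-0.26 log2, SE 0.05, adjusted p = 0.0033), and neither passed with arrays centred on their medians (adjusted p = 0.081 and 0.061). Without GONAIBF25 the call of UQCRB was lost (adjusted p = 0.066).

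**Figure D3:**
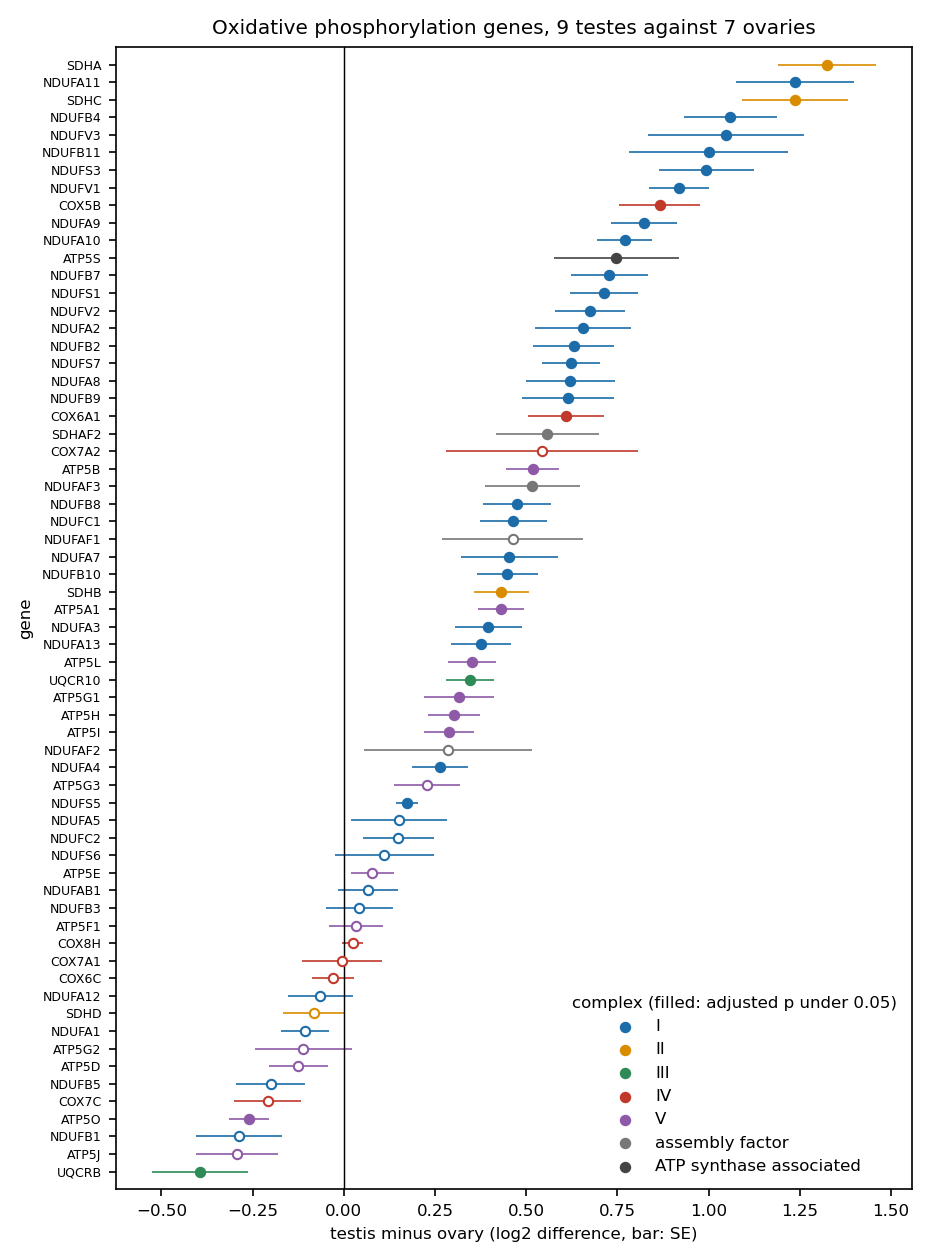
Difference of each member between 9 testes and 7 ovaries (log2, limma with breed as covariate), with bars of 1 SE, coloured by complex and filled where the adjusted p was under 0.05. The 39 members called higher in testis reach 1.32 in SDHA, and UQCRB and ATP5O are the only filled points left of 0.

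The 9 testes differed among themselves in some members. COX7A2 had 13.12 in GONAYLM19, 12.35 in GONAYLM20 and 12.32 in GONALWM02, and 10.87 to 11.28 in the other 6. NDUFV3 had 5.58, 5.19 and 5.73 in the same 3 testes and 6.07 to 6.71 in the other 6. Protamine 1, PRM1, a gene of late spermatids, had 12.03, 11.93 and 9.24 in these 3 and 2.33 to 2.49 in the other 6. SPA17, a sperm protein, had 10.85, 9.93 and 9.39 in them and 3.20 to 6.11 in the others. COX7A2 was not called between testis and ovary (0.54 log2, SE 0.26, adjusted p = 0.15), and the part of spermatogenic cells in its values was not tested.

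Breed differences were tested within each tissue, with sex as covariate in the 4 non-gonadal tissues, and by the mean of those tissues of each animal. Testis and ovary hold 1 sex each, and Youli had 1 ovary. In hypothalamus the moderated F of limma called 2 of 64 members (0.192% of all genes), UQCR10 and NDUFV1, and 29 had an unadjusted p under 0.05 (16.1% of all genes). In thyroid gland 1 member, COX7C, was called (0.695% of all genes), and 12 had an unadjusted p under 0.05 (17.4% of all genes). The counts called were 0 in adenohypophysis (0.281% of all genes), with 5 at an unadjusted p under 0.05 (15.7% of all genes), and 0 in backfat (0.665% of all genes), with 3 (19% of all genes). They were 0 in testis (0.0% of all genes), with 12 (18.5% of all genes), and 0 in ovary (0.0% of all genes), with 3 (7.38% of all genes). By animal means 1 member, again COX7C, was called (1.05% of all genes), and 5 had an unadjusted p under 0.05 (20.5% of all genes). Where no member was called, the smallest adjusted p was 0.068 in adenohypophysis (COX7C), 0.16 in backfat (COX7C), 0.13 in testis (NDUFB11) and 0.55 in ovary (NDUFB2). The next were COX7A1 in adenohypophysis (0.20), NDUFB9 in backfat (0.20), UQCR10 in testis (0.23) and NDUFA13 in ovary (0.65). Some animals of 1 breed differed widely in NDUFS6. Averaged over the non-gonadal tissues, it had 5.37 in IBF22, 5.48 in IBM23, 5.89 in LWF05 and 5.58 in LWM04. In all other animals, of these breeds too, it had 6.58 to 7.14. The same animals lay above all others in NDUFS5, at 10.38 to 10.39 against at most 10.23. They did so too in NDUFAF2 (6.86 to 7.28 against at most 6.63) and ATP5H (11.01 to 11.15 against at most 10.93). These splits enter the Large White and Iberian means, spreads and breed tests, and their cause was not tested.

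In hypothalamus the mean over members was 10.11 ± 0.10 in Large White, 10.06 ± 0.03 in Youli, 9.90 ± 0.05 in Iberian and 9.89 ± 0.07 in Duroc (SD, n = 4 each). The lowest Large White and the highest Duroc and Iberian arrays overlapped, and all Youli arrays (10.02 to 10.08) were above all Duroc (9.82 to 9.98) and Iberian arrays (9.85 to 9.97). Large White had the highest mean of the breeds in 37 members and Duroc the lowest in 35. In thyroid gland, with breed from the titles, Large White was highest in 51 members, with a mean of 9.83 ± 0.17 against 9.60 ± 0.17 in Duroc. The breed or sex field conflicted with the title on 11 of the 16 thyroid arrays. In adenohypophysis Large White was lowest in 30 members and Iberian highest in 40, and the means lay between 9.65 in Large White and 9.76 in Iberian. The order of breeds was thus not the same in the 3 tissues. Members varied together among arrays of a tissue, with a mean pairwise r of 0.32 in hypothalamus and 0.39 in thyroid gland. These counts are thus descriptions of 4 pigs per breed, and the shares over all genes were not counted. The test of breed by tissue interaction called 0 members (2.35% of all genes), with 2 at an unadjusted p under 0.05 (14.8% of all genes), SDHA (adjusted p = 0.12) and SDHC (adjusted p = 0.20). SDHA passed without FATBYLM19 (adjusted p = 0.046) and without FATBYLM19, FATBDUM12 and FATBDUF14 (adjusted p = 0.042).

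UQCR10, a small subunit of complex III, had 11.21 to 11.32 in the 4 Large White hypothalami, 10.88 to 11.08 in Youli, 10.85 to 11.01 in Iberian and 10.79 to 10.91 in Duroc, so that Large White did not overlap the others. Its adjusted p was 0.020, and Large White exceeded the other breeds by 0.35 log2 (SE 0.04, adjusted p = 0.011). NDUFV1, the subunit of complex I that binds NADH, had 9.07 to 9.31 in Large White, 9.06 to 9.19 in Youli, 8.81 to 8.94 in Duroc and 8.77 to 8.92 in Iberian (adjusted p = 0.028). Neither gene was called when dim probesets were left out (adjusted p = 0.099 and 0.10) or arrays were centred (0.057 and 0.083). Without HYPTYLM19, UQCR10 was called (adjusted p = 0.036) and NDUFV1 was not (adjusted p = 0.058). Leaving out each animal in turn gave 0 to 6 called members, 0 without LWF05 and 6 without LWM04, and 0 also without DUM15.

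COX7C, a small subunit of cytochrome c oxidase, had 12.96 to 13.17 in Large White thyroid glands, 12.61 to 13.01 in Youli, 12.45 to 12.82 in Duroc and 12.35 to 12.52 in Iberian (adjusted p = 0.032 by limma). Large White and Iberian did not overlap. Averaged over the 4 non-gonadal tissues, COX7C was 12.91 ± 0.09 in Large White, 12.68 ± 0.15 in Youli, 12.43 ± 0.19 in Duroc and 12.30 ± 0.07 in Iberian (SD, n = 4 animals each, adjusted p = 0.031). Large White had the highest mean in each of these 4 tissues, which come from the same animals. In hypothalamus its adjusted p was 0.064. The call in thyroid gland was lost without LWM04, LWF05, DUF13, YLM19, YLF21, IBF22, IBM23 or IBF25, each left out alone. On 11 of the 16 thyroid arrays the breed and sex fields conflicted with the title, which was used here. With breed and sex from the fields no member was called in thyroid gland, and the adjusted p of COX7C was 1. The call by animal means was lost without LWM02, LWM04, LWF05, IBF22, IBM23 or IBF25.

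The COX7C value comes from 1 of its 2 probesets. The other, of lower intensity, had an adjusted p of 0.85 in thyroid gland and 0.42 by animal means. In backfat it passed the test (adjusted p = 0.047), with 5.50 ± 0.33 in Large White, 4.88 ± 0.41 in Iberian, 4.06 ± 0.22 in Youli and 4.01 ± 0.49 in Duroc. With the mean over both probesets COX7C was not called in thyroid gland (adjusted p = 0.39) or by animal means (adjusted p = 0.15).

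**Figure D4:**
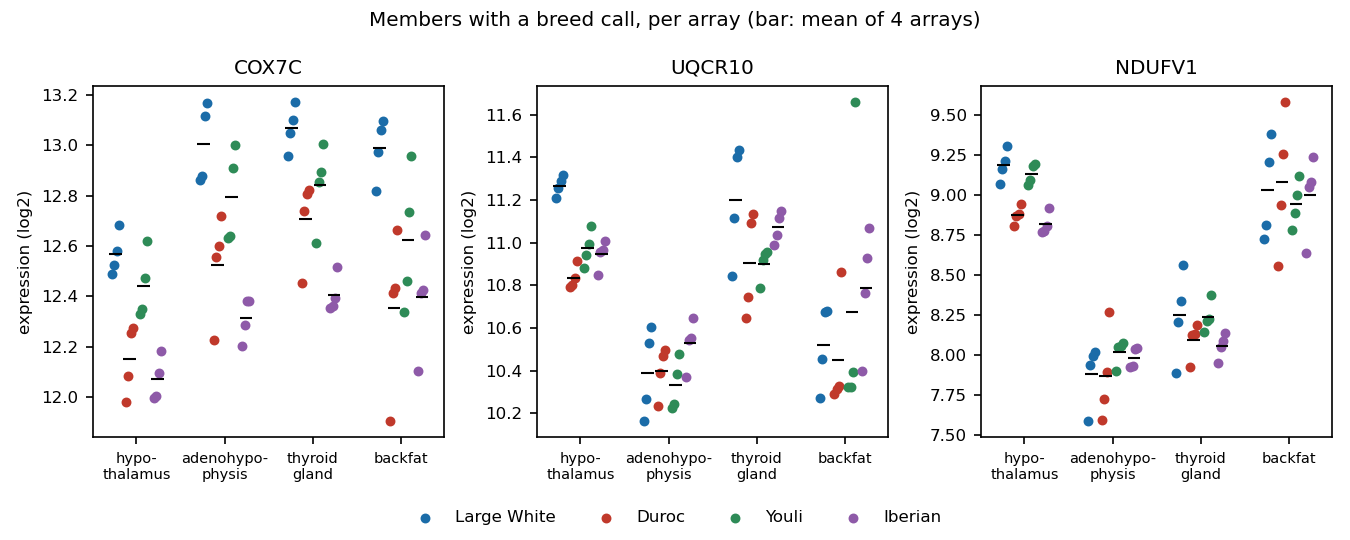
Expression (log2) of COX7C, UQCR10 and NDUFV1 on each array of hypothalamus, adenohypophysis, thyroid gland and backfat, coloured by breed, with bars at the mean of 4 arrays. COX7C is highest in Large White in all 4 tissues, with a mean of 13.07 in thyroid gland, while UQCR10 at 11.27 and NDUFV1 at 9.19 are highest in Large White in hypothalamus.

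No member was called between males and females in limma. The background was 0.0443% of genes in hypothalamus, 0.65% in adenohypophysis, 0.0739% in thyroid gland, 0.0148% in backfat and 0.133% by animal means. At an unadjusted p under 0.05 there was 1 member in hypothalamus (1.82% of all genes), 5 in adenohypophysis (10.2%), 0 in thyroid gland (5.08%), 0 in backfat (2.31%) and 1 by animal means (4.11%). The sex by tissue interaction called 0 members (0.399% of all genes), with 1 at an unadjusted p under 0.05 (3.78% of all genes). The smallest p was that of ATP5J in adenohypophysis, which had 7.97, 8.17 and 8.61 in 9 males and 8.34, 8.93 and 9.10 in 7 females. The male level was lower by 0.57 log2 (difference -0.57, SE 0.13), which did not pass the adjustment of limma (adjusted p = 0.11), and the sexes overlapped. In hypothalamus ATP5I had a difference of -0.18 log2 (SE 0.05, adjusted p = 0.999). The other smallest p-values, those of COX6A1 in adenohypophysis (adjusted p = 0.29) and by animal means (difference -0.12), ATP5D in thyroid gland (-0.21) and NDUFB4 in backfat (-0.11), did not pass the adjustment of limma either.

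Members varied together among arrays of the same tissue, except in testis. The mean pairwise correlation of members was 0.32 in hypothalamus, 0.26 in adenohypophysis, 0.39 in thyroid gland (16 arrays each), 0.47 in backfat (15 arrays, without FATBYLM19), 0.25 in ovary (7 arrays) and 0.08 in testis (9 arrays), where 54.8% of pairs were positive. Over all genes it was 0.003 to 0.014. The members of an array share its library and normalization, and the correlation is a description.

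Other mitochondrial genes were compared with the members in the same way. Of 58 mitochondrial ribosomal protein genes, which translate the subunits encoded in mitochondria, 32 were lower (46.3% of all genes) and 12 higher (28.5% of all genes) in hypothalamus, with a median of -0.22 log2. Those of highest level, MRPS21, MRPL3 and MRPL52, differed there by -0.36, -0.62 and -0.64 log2. Within each tissue, in contrast, the mean of these genes moved with the mean of the members from array to array. Pearson's r was 0.88 in hypothalamus (Spearman's rho 0.87), 0.90 in adenohypophysis (0.80), 0.93 in thyroid gland (0.91), 0.80 in backfat without FATBYLM19 (0.79), 0.78 in testis (0.73) and 0.57 in ovary (0.39). Without the 2 arrays farthest from the median these were 0.86, 0.89, 0.94, 0.75, 0.73 and 0.40. These are descriptions over 7 to 16 arrays that share library and normalization.

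Of 18 genes of the citric acid cycle and pyruvate dehydrogenase, 12 were higher in backfat (39.6% of all genes) and 2 lower, with a median of 0.49 log2. Without FATBYLM19, 12 were higher and 3 lower. Among them were CS, citrate synthase, at 1.43 log2 and PDK4, a kinase that inactivates pyruvate dehydrogenase, at 1.87 log2 (1.45 and 1.84 log2 without FATBYLM19). In ovary 13 of the 18 were lower (26.3% of all genes) and 1 higher, and in testis against ovary 10 were higher (19.6% of all genes) and 0 lower, CS by 0.77 log2 (SE 0.11). Without GONAIBF25, 12 were lower in ovary, 10 were higher in testis than in ovary, and CS was higher by 0.70 log2. Of 17 genes of mitochondrial fatty acid oxidation, 15 were higher in backfat (39.6% of all genes) and 14 lower in hypothalamus (46.3% of all genes), with ACADM at 1.28 and -0.34 log2 and HADH at 1.84 and -1.79 log2. Without FATBYLM19, 14 were higher in backfat, ACADM by 1.25 log2 and HADH by 1.90 log2. Against ovary, 9 of the 17 were higher in testis (19.6% of all genes) and 1 lower, and 10 and 1 without GONAIBF25. Of 18 glycolytic genes, 12 were higher in hypothalamus (28.5% of all genes), GAPDH by 1.16 log2 and GPI by 1.13 log2, and 11 were lower in thyroid gland (33.3% of all genes).

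Among 8 electron carrier and coenzyme Q genes, 3 were higher (28.5% of all genes) and 4 lower (46.3% of all genes) in hypothalamus. CYCS, cytochrome c, was 1.65 log2 higher (SE 0.12), and ETFDH, which passes electrons from fatty acid oxidation to coenzyme Q, was -1.05 log2 there and 2.15 log2 in backfat (2.16 log2 without FATBYLM19). Of 18 measured assembly factors and chaperones, 4 of them members, 5 were higher (28.5% of all genes) and 7 lower (46.3% of all genes) in hypothalamus, and 9 were higher (19.6% of all genes) and 0 lower in testis than in ovary, with or without GONAIBF25. Of 15 outer membrane, carrier and cristae genes, 6 were higher and 6 lower in hypothalamus, against the same shares of all genes, with VDAC1, the porin of the outer membrane, at 0.97 log2. Of 8 biogenesis regulators, 2 were higher and 2 lower in hypothalamus (28.5% and 46.3% of all genes), and 1 and 2 without HYPTYLM19. PPARGC1A, a coactivator of mitochondrial genes, was 3.06 log2 higher there (SE 0.20). Its group mean was 8.01 in hypothalamus, 7.52 in adenohypophysis, 7.25 in thyroid gland and 4.67 in ovary, and it was dim in testis (2.30 to 2.86) and in backfat without FATBYLM19 (2.38 to 2.58), while FATBYLM19 had 7.61. Of 6 uncoupling and thermogenesis genes 5 were higher in backfat (39.6% of all genes) and 4 without FATBYLM19, and 3 of the 6 had a backfat mean under log2 4.

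The genes whose 6 group means ran most like the mean of the members, among 4602 genes with a range of at least 1 log2, were PSAP (r = 0.98), HINT3 (r = 0.96) and AQP11 (r = 0.94). PSAP, the precursor of the saposins, had 12.02 in hypothalamus, 11.86 in testis and 10.89 in ovary. Correlations over 6 points, picked as the highest of 4602, are a description only.

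On FATBYLM19, 40 of 64 members were above all other 15 backfat arrays, where 19% of all genes were. Below all of them were 2 members, COX6A1 and SDHAF2, where 1612 of all 6765 genes were. The median difference from the median of the other arrays was 0.69 log2 over members and -0.004 log2 over all genes. After COX8H, the largest were accessory subunits of complex I, NDUFB1 with 12.56 against 9.86 to 10.68 and NDUFB11 with 10.70 against 8.24 to 9.22, and ATP5G1 with 11.03 against 8.42 to 9.37. COX7A1 had 10.81 against 8.45 to 10.07. COX6A1, whose muscle form COX6A2 was not among the members, had 10.28 against 11.41 to 12.20. SDHA had 10.58, within the 10.24 to 10.92 of the others. The part of muscle and of spermatogenic RNA in these values was not tested.

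**Figure D5:**
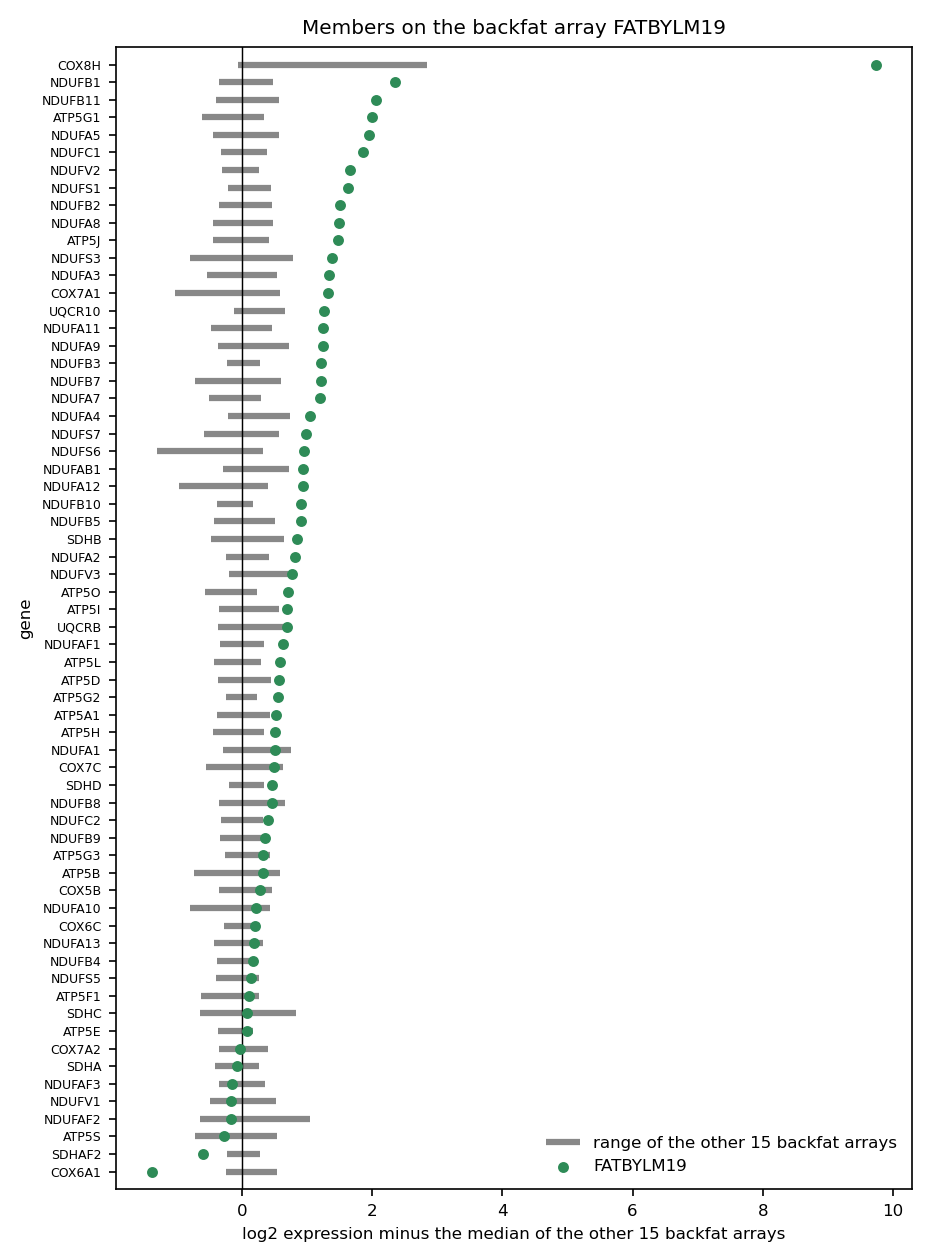
Level of each member on FATBYLM19 (green points) and the range of the other 15 backfat arrays (grey bars), both as log2 differences from the median of those 15. COX8H lies at 9.74, most complex I members lie right of their bars, and COX6A1 and SDHAF2 lie left of theirs.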

How the data were processed

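Background correction and normalization by the authors used GCRMA over all arrays jointly, and what they deposited is log2 intensity per probeset. Of 24123 probesets, 124 controls were left out and 23999 used. GEO's platform annotation gave 1 symbol to 10069 probesets, several to 198 and none to 13732. All 64 members matched a RefSeq gene of the same symbol, and 1 entry that lists more than 1 symbol was left out. Breed, sex and animal came from titles, since fields conflicted with them on 11 of 16 thyroid arrays.

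limma 3.58.1 in R 4.3.3 was fitted to all 23999 probesets by lmFit and eBayes, two-sided, with Benjamini-Hochberg adjustment over all of them and a threshold of 0.05. The tissue model held group, breed and sex over 80 arrays. Each group was contrasted with the equal-weight mean of the other 5. Testis and ovary were compared with breed as covariate, breeds within a tissue with sex as covariate where both sexes were present, and sexes with breed as covariate. Replicates are different animals, and precision is limited by how many arrays there are. Levels of different probesets cannot be compared. The fits were tested on simulated data, with 200 of 23999 probesets shifted and noise drawn independently for each array. Shifts of 0.5 log2 were recovered in 74% for hypothalamus against the other groups and 26.5% for testis against ovary. Recovery was 19% for breed within hypothalamus, 45.5% for breed by animal means and 29% for sex within adenohypophysis. For breed within hypothalamus, 45.5% of shifts of 1 log2 were recovered. Counts of 0 called members can thus miss shifts of these sizes.

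Alternatives were a filter on probesets under log2 4 in every group, centring of arrays on their median, the mean over the probesets of a gene, eBayes with trend and robust, other covariates, the animal as replicate block, thyroid breed and sex from the fields, and leaving out FATBYLM19 or each animal in turn. Leaving out the other arrays with markers of another cell type, alone or in sets, was added after seeing the data. Animal numbers pair arrays across tissues, as titles give the animal: for pairs of the 4 non-gonadal tissues, deviations from group means correlated between arrays of the same animal with a mean r of 0.19 to 0.32. No 2 arrays were identical.

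Genes named were the isoform families, the core or catalytic subunits, the called members of largest difference per contrast, those with a breed call or of smallest p, and those with the largest and smallest ranges. Of the other lists, genes among the 4 called members of highest mean were named. PRM1, SPA17, CKM, MYL1, MYH7 and the members named on FATBYLM19 were chosen after their values were seen. So were NDUFV3 and COX7A2 in single testes, and NDUFB11 and NDUFB4 between testis and ovary. The same holds for NDUFS6, NDUFS5, NDUFAF2 and ATP5H in single animals. The members and lists were chosen with earlier results of these data known.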

Additional observations from a re-analysis of the deposited data

Results flagged for a closer look

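Groups of 4 to 10 arrays were examined for single arrays far from the others, by the gap to the nearest array divided by the range of the group. Of 198 groups 15 had such an array, and chance gives about 1 in 20 for independent groups, while these share arrays. Of these, 7 were in Youli backfat and came from FATBYLM19: the mean over members (10.53 against 9.50 to 9.63 on the other 3 arrays), NDUFA4 (12.07 against 10.81 to 10.92), UQCR10 (11.66 against 10.32 to 10.40), COX8H (11.65 against 1.87 to 2.21), ATP5G1 (11.03 against 8.84 to 9.13), SDHA (10.58 against 10.24 to 10.30) and NDUFA5 (9.97 against 7.58 to 7.84).

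The other backfat arrays far from their breed were FATBDUF14 for UQCR10 (10.86 against 10.29 to 10.33) and FATBIBM24 for SDHA (10.29 against 10.79 to 10.86). In hypothalamus HYPTYLM18 was low for NDUFA5 (9.54 against 9.99 to 10.08). In adenohypophysis AHYPYLF21 was low for NDUFV1 (7.90 against 8.05 to 8.07) and AHYPIBM24 for the mean over members (9.64 against 9.79 to 9.80). In thyroid gland THYGIBM23 was high for ATP5G2 (11.32 against 11.12 to 11.13). Among the 9 testes GONAIBM23 was high for COX8H (2.0 against 1.83 to 1.89), at the lowest values of the table, and GONAYLM19 was low for ATP5G1 (9.01 against 9.40 to 9.66).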

How the results depend on the processing

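Of the alternatives for single members, 1844 kept direction and side of the threshold, 50 lost the call, 7 gained it and 0 reversed. Breed calls in hypothalamus were 0 with dim probesets left out, with centring and with eBayes trend, and 5 without sex as covariate. With centring, backfat had 16 lower members and testis against ovary 0 lower. With the mean over probesets, breed calls were 0 in thyroid gland and 0 by animal means, and the breed by tissue interaction called 1. With breed and sex from the fields, breed calls in thyroid gland were 0. Without FATBYLM19 the interaction called 1. Of the alternatives chosen after seeing the data, leaving out FATBYLM19, FATBDUM12 and FATBDUF14 gave 1 interaction call and leaving out HYPTYLM19 gave 1 breed call in hypothalamus, and leaving out GONAIBF25, THYGYLM19 with THYGYLM20, or GONAYLM19, GONAYLM20 and GONALWM02 moved no count of members by over 1.5 times. Leaving out each animal gave breed calls of 0 to 6 in hypothalamus (0 without LWF05 or DUM15, 6 without LWM04), 0 to 1 in adenohypophysis (1 without DUM15), 0 to 3 in thyroid gland (3 without LWF06, 2 without IBM24) and 0 to 1 by animal means. It gave 0 to 2 sex calls in adenohypophysis (2 without YLF21, 1 without LWM04 or LWF06), 1 to 3 members lower in testis than ovary (3 without YLM19 or IBF25; 1 without LWM04, DUM12, DUF13, DUF14, YLM18, IBF22 or IBM24) and 0 to 1 interaction calls (1 without IBM24). With the animal as replicate block, 63 members differed among groups, thyroid gland had 19 higher and 24 lower, and no other count changed. In these settings the cause was not tested. Dim probesets limit COX8H, whose lowest values have no order, and the dim filter removed it.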
